A study of Homo sapiens with 24 samples.

Results

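The genes described here carry out and prepare the copying of DNA. They comprise the factors that license replication origins, the replicative helicase and its activators, the DNA polymerases and primase, the sliding clamp with its loader, the proteins of lagging strand synthesis, 5 members of the E2F family of transcription factors, and 2 chromatin factors that follow the fork. They were chosen by symbol, with no threshold on their values, and number 42 of the 23368 genes in the deposited table. All 42 passed the filter on low counts, which left 13947 genes for testing.

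They were measured by RNA sequencing in AGS, an established human gastric adenocarcinoma line grown in medium with fetal calf serum, whose genotype the labels give as WT. The 6 groups held 4 libraries each, 24 in all, and RNA was harvested after 24 h of treatment. PI103, an inhibitor of PI3 kinase and mTOR, was given at 0.7 µM, PD0325901, an inhibitor of MEK, at 0.035 µM, and (5Z)-7-oxozeaenol (oxozeaenol below), an inhibitor of the kinase TAK1, at 0.5 µM. PI103 and oxozeaenol were also combined at 0.35 µM and 0.25 µM, and PI103 and PD0325901 at 0.35 µM and 0.0175 µM, which is 50% of each single concentration. Control cells are labelled as having no treatment, and the labels do not say whether they received vehicle. The series design calls the 4 libraries of a group biological replicates, and each carries a batch number that recurs in every group, but nothing in the labels says that they came from separate cultures. Test values therefore measure the spread between these libraries.

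DNA replication starts in G1 phase, when the origin recognition complex (ORC) with CDC6 and CDT1 loads the ring of MCM2 to MCM7 onto origins. In S phase CDC45 and the GINS complex join the ring to form the active helicase, primase and the polymerases copy the strands, and the clamp PCNA holds polymerases on DNA. Many of these genes are transcribed under the control of E2F factors, which the retinoblastoma protein restrains until cyclin-dependent kinases phosphorylate it. E2F1, E2F2 and E2F3 act mainly as activators, whereas E2F7 and E2F8 repress and are themselves E2F targets. PI3 kinase and MEK signalling both feed into cyclin D and so into this switch.

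E2F factors bind a short GC-rich word, and the promoters of many members carry it. RefSeq windows of assembly GRCh38.p14, from 250 bases before to 50 after each annotated start, were at hand for 35 of the 42 members. They were searched on both strands for TTTCCCGC, TTTCGCGC, TTTGCCGC and TTTGGCGC, and matches to different words or strands may overlap. At least 1 match was found in 21 of the 35 members (60%), against 3.99% of 27305 genes with a window and 6.49% of the 9472 tested genes with one. The letters CCAAT, read by NF-Y, were found in 22 of the 35 members (62.9%) and in 39.7% of all genes with a window. A match describes letters and is not a measured binding site. The 8 stretches shown here belong to members covered below, MCM6 only within the counts and medians of the MCM2 to MCM7 ring. Capitals mark the E2F words that lie wholly before the start, in the strand of the gene.
MCM6, chr2:135876514-135876603, minus strand: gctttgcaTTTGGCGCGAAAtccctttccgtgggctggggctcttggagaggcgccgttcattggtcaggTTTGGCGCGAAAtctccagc
MCM3, chr6:52284888-52284937, minus strand: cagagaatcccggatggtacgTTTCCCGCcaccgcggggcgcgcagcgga
GINS2, chr16:85688967-85688996, minus strand: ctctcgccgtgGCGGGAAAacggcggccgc
POLA1, chrX:24693760-24693809, plus strand: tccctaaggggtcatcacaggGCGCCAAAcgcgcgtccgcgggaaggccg
POLE, chr12:132687343-132687392, minus strand: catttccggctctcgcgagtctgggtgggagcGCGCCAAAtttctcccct
LIG1, chr19:48170440-48170469, minus strand: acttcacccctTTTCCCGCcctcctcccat
E2F1, chr20:33686386-33686435, minus strand: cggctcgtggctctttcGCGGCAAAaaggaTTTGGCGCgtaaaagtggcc
E2F2, chr1:23531247-23531296, minus strand: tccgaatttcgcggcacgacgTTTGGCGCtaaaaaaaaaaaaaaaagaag
MCM6 held the same 12 letters at 2 places, in each of which 2 words on opposite strands overlap, and E2F1 held 2 words on opposite strands that do not. The printed words of GINS2, POLE, E2F1 and E2F2 lay within 50 bases of the start, and those of MCM6, MCM3, POLA1 and LIG1 lay further upstream; MCM3 also held a word across its start, which is not printed. In the text that follows, MCM6, MCM3, POLE, LIG1, E2F1 and E2F2 all stood higher with PI103, whereas GINS2 was not called there. POLA1 was among the genes that stood lower with PD0325901. Of the 21 members with a word, 12 were called higher with PI103 and 1, CDC6, was called lower.

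Libraries held 38.1 to 84.2 M counts in genes. The 42 members took 0.361 ± 0.0148% of them in control (SD, n = 4 in each group), 0.470 ± 0.00862% with PI103 and 0.503 ± 0.0133% with oxozeaenol. The share was 0.568 ± 0.0186% with PI103 and oxozeaenol, 0.326 ± 0.0407% with PD0325901 and 0.349 ± 0.0665% with PI103 and PD0325901. In that last group batches 1 to 4 held 0.377%, 0.249%, 0.380% and 0.389%, against 0.346% to 0.378% in control. By this plain share only its batch 2 lay below every control. Of 8 markers of gastric epithelium, 6 stood at 1 CPM (counts scaled to library size) or more in each group, while 5 leukocyte markers summed to at most 3.55 CPM and 4 endothelial markers to at most 0.45 CPM. Of 5 fibroblast markers 1 reached 1 CPM, and their sum was lowest with oxozeaenol (from 8.06 CPM) and highest with PI103 (to 34.4 CPM). Reads in no annotated feature made up 5.20% to 6.64% of all tallied reads in control and 7.04% to 7.82% with PI103 and PD0325901. They made up 5.74% to 8.57% with oxozeaenol and 6.03% to 8.50% with PI103 and oxozeaenol, highest in batch 4 of each. The part of these differences in the results was not tested.

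The members moved apart under the inhibitors (plot of library means). Taken as the mean log2 CPM over the 42 members minus the control mean, the control libraries of batches 1 to 4 lay at 0.08, -0.04, 0.01 and -0.05. Those with PI103 lay at 0.33, 0.28, 0.25 and 0.25, those with oxozeaenol at 0.37, 0.30, 0.39 and 0.36 and those with both at 0.57, 0.47, 0.54 and 0.55. All 12 of these libraries lay above all 4 controls. The libraries with PD0325901 lay at -0.21, -0.58, -0.18 and -0.17, and those with PI103 and PD0325901 at -0.10, -0.73, -0.09 and -0.09, all below every control. Batch 2 stood apart in both groups that received PD0325901, so results on these groups are given with and without batch 2 where that changes them, an alternative added after the data were seen.

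**Figure D1:**
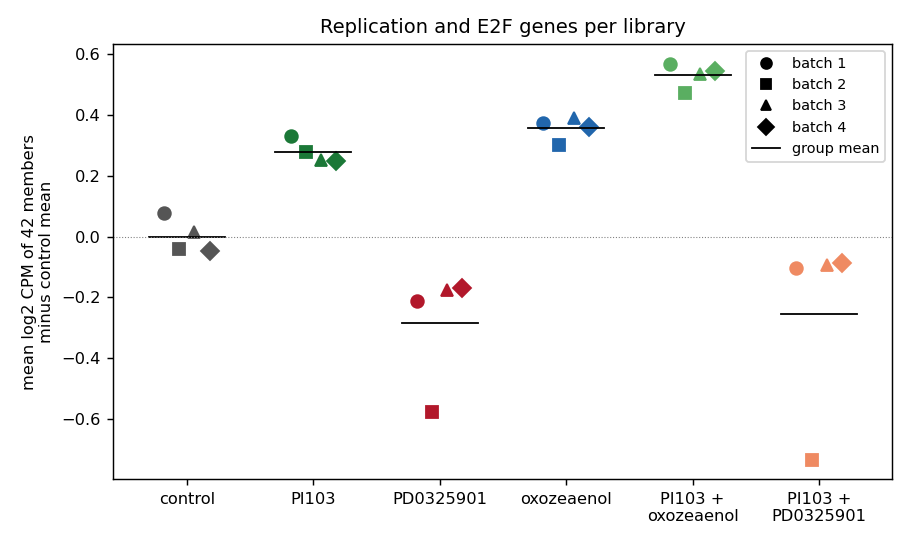
Mean log2 CPM over the 42 replication and E2F genes minus the mean of the control libraries, with 1 point per library, the batch as marker and a line at each group mean. Libraries with PI103, oxozeaenol or both lie between 0.25 and 0.57, and batch 2 lies lowest with PD0325901 (-0.58) and with PI103 and PD0325901 (-0.73).

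Against control, edgeR's quasi-likelihood test at a Benjamini-Hochberg adjusted p under 0.05 called 22 members higher and 5 lower with PI103, where 26.2% of all tested genes were called higher and 25.2% lower (51.4% in all). With oxozeaenol 24 members were higher and 1 lower, beside 25.7% and 26.1% of all genes (51.9% in all), and with PI103 and oxozeaenol 29 were higher and 1 lower, beside 27.7% and 27.9% (55.6%). With PD0325901 the direction turned, with 17 members lower (40.5%) and 1 higher, beside 29.9% lower and 28.7% higher (58.6%). PI103 and PD0325901 gave 18 lower (42.9%) and 3 higher, beside 32.6% and 32.2% (64.8%). Of the 42 members, 24 were not called with PD0325901 and 21 with PI103 and PD0325901. In either direction, members of these groups were thus called less often than genes in general. The value after ± beside a log2 change is its standard error throughout. The median member stood at 0.30 on the log2 scale with PI103, 0.42 with oxozeaenol and 0.58 with both. Under PD0325901 it was -0.21, and under PI103 and PD0325901 -0.19. The medians over all tested genes lay at 0.02, 0.02, 0.02, -0.02 and 0.01 in that order. These comparisons share the control libraries. When the null was a log2 change of up to 0.5 instead of 0, PI103 gave 5 members called, PD0325901 4, oxozeaenol 3, PI103 and oxozeaenol 16, and PI103 and PD0325901 6. All libraries lay above control for 23 members with PI103, beside 24.8% of all genes, and for 31 with PI103 and oxozeaenol, beside 25.8%. They lay below it for 14 with PD0325901, beside 24.9%. Because these are bulk libraries, fewer cells copying DNA and less RNA per cell cannot be told apart. With library totals in place of TMM factors the median of all genes with PI103 and PD0325901 moved to 0.13, and the members called became 14 lower and 8 higher there, 2 and 24 with PI103 and 14 and 3 with PD0325901. Without batch 2 the calls were 14 lower and 2 higher with PD0325901, and 16 lower and 9 higher with PI103 and PD0325901. For these and later alternative fits the share of all genes called is not given, so the counts describe the members alone.

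**Figure D2:**
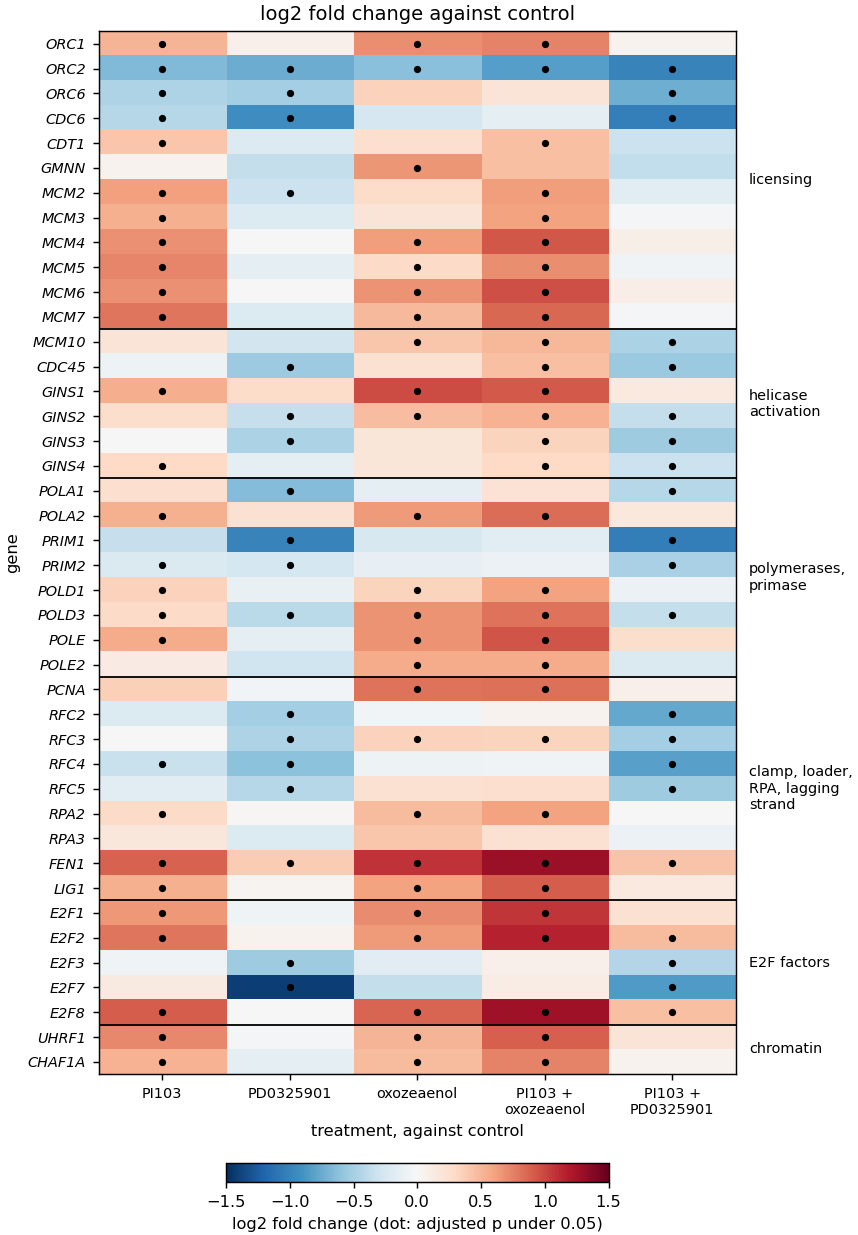
Log2 fold change of each of the 42 members (rows, by role) against control under the 5 treatments (columns), from edgeR, with dots where the adjusted p is under 0.05. The columns with PI103, oxozeaenol or both are mostly red, with 22, 24 and 29 members higher, while those with PD0325901 or PI103 and PD0325901 hold 17 and 18 lower members, and ORC2 is lower in each of the 5.

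Of the 12 licensing genes, 8 rose and 3 fell with PI103, 6 rose and 1 fell with oxozeaenol, and 8 rose and 1 fell with both. With PD0325901 4 fell, and with PI103 and PD0325901 3 fell and none rose. The subunits of the MCM2 to MCM7 ring, which opens the DNA, moved in 1 direction. All 6 rose with PI103, with a median of 0.68 on the log2 scale, and with PI103 and oxozeaenol, with a median of 0.78. With oxozeaenol alone 4 of 6 rose and their median was 0.39, with PD0325901 only MCM2 fell (-0.32, adjusted p 0.0369), and none of the 6 was called with PI103 and PD0325901. MCM7, on chromosome 7, showed the widest of these rises with PI103. MCM7 held 182, 126, 147 and 134 CPM in control, 261, 279.6, 247 and 243 CPM with PI103 and 134, 103, 144 and 132 CPM with PD0325901. It held 225, 198, 213 and 190.0 CPM with oxozeaenol, 289, 257, 267 and 256 CPM with PI103 and oxozeaenol, and 169, 100.3, 155 and 155 CPM with PI103 and PD0325901. Each library with PI103, oxozeaenol or both exceeded every control, and those with PD0325901 overlapped the controls. MCM7 rose by 0.81 (± 0.129, adjusted p 9.96e-06) with PI103, rose by 0.49 with oxozeaenol and rose by 0.86 with both.

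MCM3, another subunit of the ring (chr6:52264009-52284881, minus strand, GRCh38), showed the smallest rise of the 6 with PI103. MCM3 held 172, 143, 174 and 141 CPM in control, 242, 241, 221 and 206 CPM with PI103 and 142, 121, 151 and 131 CPM with PD0325901. It held 204, 166, 179 and 173 CPM with oxozeaenol, 255, 235, 243 and 222 CPM with PI103 and oxozeaenol, and 183, 109, 165 and 158 CPM with PI103 and PD0325901. The libraries with PI103, alone or with oxozeaenol, stood above all controls, and the other treatments overlapped with them. MCM3 rose by 0.53 (± 0.117, adjusted p 0.000449) with PI103 and rose by 0.60 (± 0.117, adjusted p 9.71e-05) with PI103 and oxozeaenol, but was not called with oxozeaenol alone (0.20 (adjusted p 0.158)). Within control, batches 1 and 3 stood above batches 2 and 4 for both MCM3 and MCM7. Per kilobase of exon, the control level was highest for MCM3, at 43.1 ± 4.98 (SD, n = 4) CPM per kb, and lowest for MCM5, at 12.002 ± 1.25 (SD, n = 4). With PI103 and oxozeaenol MCM3 reached 65.5 ± 3.85 (SD, n = 4) CPM per kb and MCM5 19.4 ± 1.85 (SD, n = 4). The ratio of the highest to the lowest subunit stayed between 3.13 and 3.65 over the 6 groups. MCM2 overlaps genes of the other strand over 23.6% of its exons, and whether the counting used strand is not given in the sources used here.

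ORC2, ORC6 and CDC6, which act upstream of the ring, were lower with PI103, where the ring was higher, whereas ORC1 and CDT1 were higher. ORC2, a core subunit of the complex (chr2:200908973-200963680, minus strand), was lower under each inhibitor. ORC2 held 109.6, 123, 118 and 113 CPM in control, 75.8, 75.8, 74.8 and 67.7 CPM with PI103 and 69.9, 59.5, 76.5 and 70.8 CPM with PD0325901. It held 76.4, 78.4, 82.0 and 64.4 CPM with oxozeaenol, 62.01, 72.9, 65.1 and 61.9 CPM with PI103 and oxozeaenol, and 58.9, 51.4, 61.9 and 59.1 CPM with PI103 and PD0325901. Every treated library stood below every control library. ORC2 fell by 0.66 (± 0.0871, adjusted p 6.69e-07) with PI103. Under PD0325901 the log2 change was -0.75, under oxozeaenol -0.62, under PI103 and oxozeaenol -0.83 and under PI103 and PD0325901 -1.01, the lowest adjusted p being 2.47e-10. It was the one member called lower with oxozeaenol and with PI103 and oxozeaenol.

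CDC6, the ATPase that recruits the ring to origins (chr17:40287633-40304657, plus strand), fell with each of the treatments except those holding oxozeaenol. CDC6 held 242, 236, 245 and 255 CPM in control, 203, 189, 183 and 156 CPM with PI103 and 130.3, 112, 143 and 128 CPM with PD0325901. It held 218, 218, 205 and 181 CPM with oxozeaenol, 239, 219.6, 226 and 206 CPM with PI103 and oxozeaenol, and 133, 85.5, 132 and 128 CPM with PI103 and PD0325901. Libraries with PD0325901, alone or with PI103, stood lowest, and only those with PI103 and oxozeaenol overlapped the controls. CDC6 fell by 0.42 (± 0.111, adjusted p 0.00242) with PI103, fell by 0.93 (± 0.112, adjusted p 9.36e-08) with PD0325901 and fell by 1.03 (± 0.112, adjusted p 1.18e-08) under PI103 and PD0325901. With oxozeaenol it stood at -0.25 (adjusted p 0.0602), and it was called lower there without batch 2 (adjusted p 0.0197) and with the batch as a replicate block (adjusted p 0.0356). With PI103 and oxozeaenol its log2 difference was -0.13 (adjusted p 0.313).

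ORC1, the ATPase subunit of the origin recognition complex, rose by 0.51 with PI103, rose by 0.70 with oxozeaenol and rose by 0.74 with both, and was not called with PD0325901 (0.08 (adjusted p 0.631)). ORC6, a subunit of the same complex, held 65.2 ± 12.6 CPM (SD, n = 4) in control, 47.3 ± 5.82 CPM (SD, n = 4) with PI103 and 83.0 ± 4.198 CPM (SD, n = 4) with oxozeaenol. It fell by 0.46 (± 0.186, adjusted p 0.0409) with PI103, fell by 0.51 (± 0.186, adjusted p 0.0213) with PD0325901 and fell by 0.73 (± 0.187, adjusted p 0.00157) with both, against 0.35 (adjusted p 0.121) with oxozeaenol. The call of ORC6 with PI103 was lost without control replicate 2 or 4 or PI103 replicate 2 or 3 (adjusted p 0.0956 to 0.128), or with library totals (0.0689). With PD0325901 the call of ORC6 was lost without control replicate 2 or 4 or PD0325901 replicate 2 (0.0664 to 0.107) or without batch 2 (0.117), and with oxozeaenol ORC6 was called higher without batch 2 (0.0111). CDT1, which brings the ring to ORC, rose by 0.42 with PI103 and rose by 0.45 with PI103 and oxozeaenol. GMNN, the geminin that blocks CDT1, rose by 0.66 with oxozeaenol and was not called in the other 4 treatments.

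**Figure D3:**
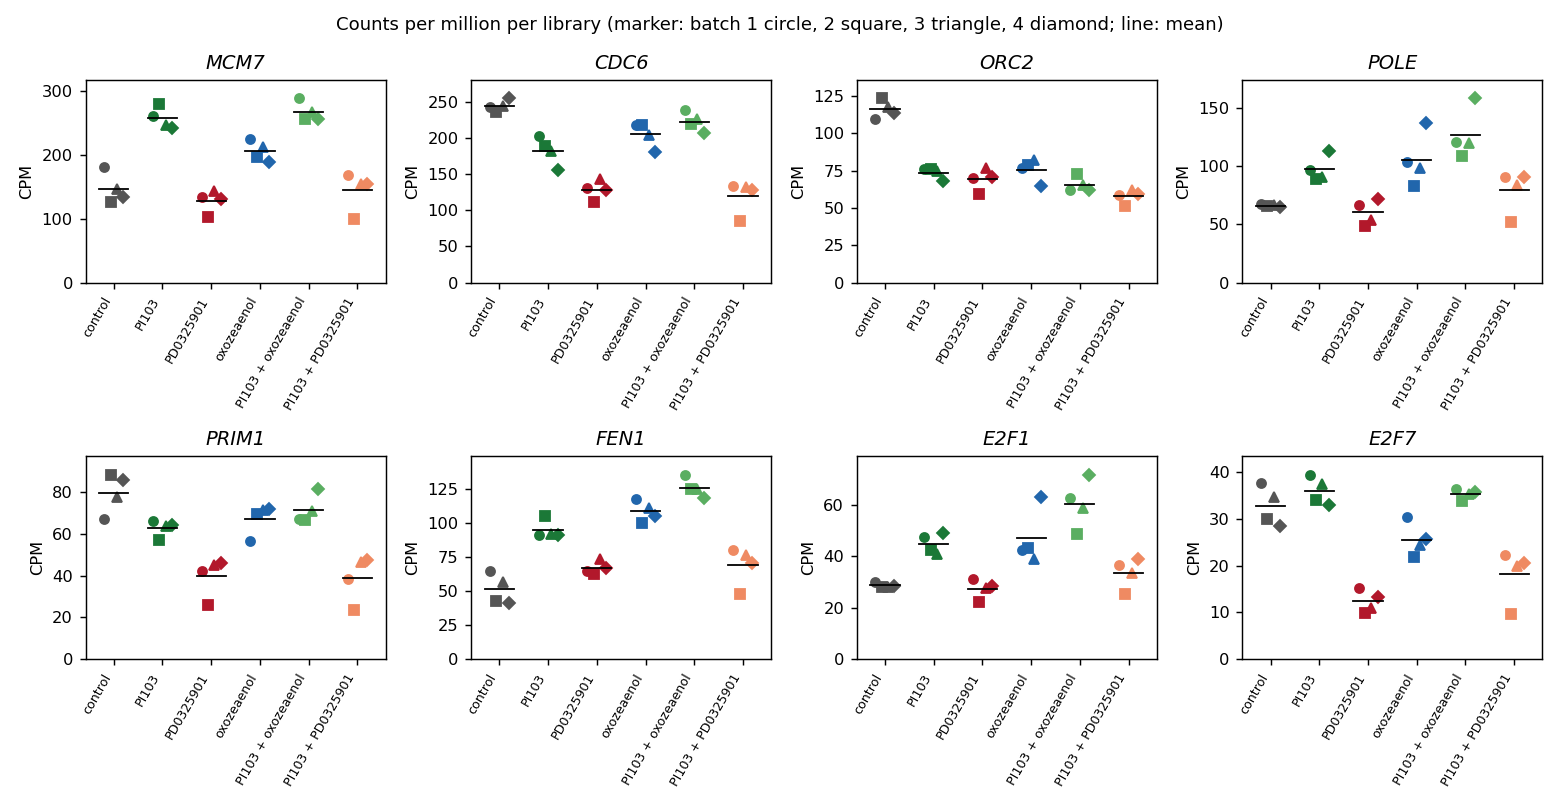
CPM of 8 members in each of the 24 libraries by group, with the batch as marker and a line at the group mean; each vertical axis starts at 0. ORC2 lies below control in every treated library, MCM7, POLE, FEN1 and E2F1 lie above it with PI103, oxozeaenol or both, and PRIM1, CDC6 and E2F7 are lowest with PD0325901, alone or with PI103.

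MCM10, CDC45 and the 4 GINS subunits turn the loaded ring into a running helicase. Of these 6 genes, 2 rose with PI103, 3 with oxozeaenol and all 6 with PI103 and oxozeaenol, and none fell. With PD0325901 3 fell, and with PI103 and PD0325901 5 fell, the exception being GINS1. GINS1, the PSF1 subunit (chr20:25407727-25452628, plus strand), was the most abundant subunit per length. GINS1 held 148, 138, 143 and 115 CPM in control, 203, 187, 206 and 197 CPM with PI103 and 159, 126, 172 and 203 CPM with PD0325901. It held 254, 260.1, 307 and 252 CPM with oxozeaenol, 252, 263, 258 and 257 CPM with PI103 and oxozeaenol, and 144, 103, 173 and 181 CPM with PI103 and PD0325901. All libraries with PI103, oxozeaenol or both lay above all controls. GINS1 rose by 0.98 (± 0.135, adjusted p 1.27e-06) with oxozeaenol and rose by 0.92 (± 0.134, adjusted p 2.42e-06) under PI103 and oxozeaenol, and rose by 0.54 with PI103. It stood at 0.28 (adjusted p 0.0769) with PD0325901 and 0.14 (adjusted p 0.36) with PI103 and PD0325901, and was called higher in these without replicate 2 of the treated group (adjusted p 0.00711 and 0.0371) or without batch 2 (0.00737 and 0.037). With library totals GINS1 was called higher with PD0325901 (0.0163).

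GINS2, the PSF2 subunit (chr16:85676198-85690073, minus strand), stood on both sides of control. GINS2 held 43.8, 52.5, 43.2 and 51.6 CPM in control, 58.6, 55.2, 53.9 and 61.4 CPM with PI103 and 36.3, 27.0, 43.4 and 43.0 CPM with PD0325901. It held 53.3, 62.7, 70.0 and 76.5 CPM with oxozeaenol, 69.0, 60.8, 67.1 and 78.3 CPM with PI103 and oxozeaenol, and 33.3, 26.8, 41.5 and 48.2 CPM with PI103 and PD0325901. With PI103, oxozeaenol or both, all libraries lay above the controls, and with PD0325901, alone or with PI103, the batch 2 library was lowest and the groups overlapped with control. GINS2 rose by 0.53 (± 0.150, adjusted p 0.00463) with PI103 and oxozeaenol, rose by 0.46 with oxozeaenol and stood at 0.26 (adjusted p 0.152) with PI103, where library totals (0.0467) or leaving out batch 2 (0.0468) gave a call. It fell by 0.35 (± 0.151, adjusted p 0.0486) with PD0325901 and fell by 0.35 (± 0.151, adjusted p 0.0438) under PI103 and PD0325901. The fall of GINS2 was not called without batch 2 (adjusted p 0.284 and 0.265), with library totals (0.104 and 0.159), or without any 1 of control replicates 2 and 4 and replicates 1 and 2 of the treated group (0.103 to 0.235 and 0.101 to 0.182). Without oxozeaenol replicate 4 its rise with oxozeaenol was not called (0.0591).

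GINS4, the SLD5 subunit, moved less. GINS4 held 23.0, 20.1, 23.6 and 20.8 CPM in control, 28.8, 26.3, 28.2 and 24.4 CPM with PI103 and 21.1, 16.3, 18.9 and 22.9 CPM with PD0325901. It held 27.2, 24.4, 26.4 and 21.3 CPM with oxozeaenol, 27.2, 26.7, 28.2 and 25.4 CPM with PI103 and oxozeaenol, and 20.5, 12.4, 20.3 and 16.9 CPM with PI103 and PD0325901. Libraries with PI103, alone or with oxozeaenol, lay above the controls by a small margin, and the rest overlapped. GINS4 rose by 0.30 (± 0.122, adjusted p 0.0414) with PI103, rose by 0.30 (± 0.122, adjusted p 0.0409) under PI103 and oxozeaenol, and it fell by 0.32 (± 0.122, adjusted p 0.0249) under PI103 and PD0325901. None of these 3 calls held with each library left out. The call with PI103 was lost without PI103 replicate 1, 2 or 3 or control replicate 2 or 4 (adjusted p 0.0589 to 0.115). With PI103 and oxozeaenol it was lost without replicate 1, 2 or 3 of that group, control replicate 2 or 4, or batch 2 (0.052 to 0.109). With PI103 and PD0325901 the call of GINS4 was lost without replicate 2 or 4 of that group, control replicate 1 or 3, batch 2 (0.0548 to 0.14), or with library totals (0.166). Genes of the other strand overlap 23.6% of its exons. CDC45, which joins the ring with GINS, rose by 0.45 with PI103 and oxozeaenol and fell by 0.54 with PD0325901 and 0.56 with PI103 and PD0325901. MCM10, which is needed to start the helicase, rose by 0.41 with oxozeaenol and fell by 0.47 with PI103 and PD0325901. With PD0325901 it stood at -0.27 (adjusted p 0.0681) and was called without control replicate 2 or 4 (0.0416 each) and with the replicate block (0.0271).

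Among the 8 genes of the polymerases and primase, 5 rose with oxozeaenol and 5 with PI103 and oxozeaenol, and none fell. With PI103 4 rose and PRIM2 fell, and with PD0325901, alone or with PI103, 4 fell and none rose. POLE, the catalytic subunit of the leading strand polymerase (chr12:132623753-132687365, minus strand), is 1 of the members whose promoter letters are printed above. POLE held 67.1, 65.4, 66.5 and 64.4 CPM in control, 96.1, 88.9, 90.8 and 113 CPM with PI103 and 66.8, 48.5, 53.6 and 71.7 CPM with PD0325901. It held 103, 82.4, 98.1 and 136 CPM with oxozeaenol, 121, 108, 119 and 158 CPM with PI103 and oxozeaenol, and 90.7, 51.6, 83.5 and 90.2 CPM with PI103 and PD0325901. All libraries with PI103, oxozeaenol or both stood above all controls. POLE rose by 0.56 (± 0.162, adjusted p 0.00558) with PI103, rose by 0.67 (± 0.162, adjusted p 0.00132) with oxozeaenol and rose by 0.94 (± 0.163, adjusted p 3.07e-05) with both. With PD0325901 it stood at -0.13 (adjusted p 0.511), and with PI103 and PD0325901 at 0.26 (adjusted p 0.159). In the latter POLE was called higher without replicate 2 of that group (adjusted p 0.0129), without batch 2 (0.00954) or with library totals (0.037).

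PRIM1, the catalytic subunit of primase, which lays the RNA primers (chr12:56731596-56752373, minus strand), went the other way from POLE. PRIM1 held 67.3, 88.5, 77.8 and 85.7 CPM in control, 66.2, 57.0, 63.9 and 64.4 CPM with PI103 and 42.3, 26.1, 44.9 and 45.8 CPM with PD0325901. It held 56.7, 69.5, 71.3 and 72.0 CPM with oxozeaenol, 67.1, 66.6, 70.9 and 81.5 CPM with PI103 and oxozeaenol, and 38.4, 23.7, 46.5 and 47.6 CPM with PI103 and PD0325901. Libraries with PD0325901, alone or with PI103, held the lowest values, and those with PI103 alone also lay below the controls. PRIM1 fell by 1.00 (± 0.169, adjusted p 1.96e-05) with PD0325901 and fell by 1.03 (± 0.170, adjusted p 1.07e-05) under PI103 and PD0325901. With PI103 it stood at -0.34 (adjusted p 0.0895), and it was called lower there with the replicate block (adjusted p 0.0408). Genes of the same strand, NACA among them, overlap 16.2% of its exons. PRIM2, its partner subunit (chr6:57314805-57646849, plus strand), moved in the same direction but less. PRIM2 held 50.9, 57.3, 58.0 and 55.7 CPM in control, 50.7, 43.5, 53.0 and 43.0 CPM with PI103 and 45.3, 40.0, 50.8 and 48.8 CPM with PD0325901. It held 48.6, 52.8, 54.7 and 48.4 CPM with oxozeaenol, 54.0, 53.4, 53.6 and 48.4 CPM with PI103 and oxozeaenol, and 39.7, 33.4, 44.7 and 40.9 CPM with PI103 and PD0325901. Only the libraries with PD0325901, alone or with PI103, lay wholly below control. PRIM2 fell by 0.48 (± 0.0918, adjusted p 5.42e-05) under PI103 and PD0325901.

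PRIM2 also fell by 0.22 (± 0.0916, adjusted p 0.0446) with PI103 and fell by 0.26 (± 0.0916, adjusted p 0.0163) with PD0325901, and both calls rested on few libraries. The call of PRIM2 with PI103 was lost without control replicate 2, 3 or 4 or PI103 replicate 2 or 4 (adjusted p 0.0728 to 0.146), without batch 2 (0.16) and with library totals (0.151). That with PD0325901 was lost without control replicate 3 or PD0325901 replicate 1 or 2 (0.0625 to 0.129), without batch 2 (0.114) and with library totals (0.0812). POLA1, the catalytic subunit of the polymerase that extends primers, fell by 0.65 (± 0.143, adjusted p 0.000365) with PD0325901 and fell by 0.43 with PI103 and PD0325901, and its window holds an E2F word. Its accessory subunit POLA2 rose by 0.54 with PI103, rose by 0.64 with oxozeaenol and rose by 0.84 with both; a gene of the same strand overlaps 35.1% of its exons. POLD3, an accessory subunit of the lagging strand polymerase, held 52.2 ± 5.24 CPM (SD, n = 4) in control, 83.5 ± 4.08 CPM (SD, n = 4) with oxozeaenol and 39.4 ± 5.57 CPM (SD, n = 4) with PD0325901. POLD3 rose by 0.68 with oxozeaenol and fell by 0.41 with PD0325901. POLD1, the catalytic subunit of the same enzyme, rose by 0.35 with PI103, rose by 0.33 with oxozeaenol and rose by 0.61 with both.

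The 9 genes of the clamp, its loader, the single-strand binding protein RPA and lagging strand processing differed in direction. FEN1 and LIG1, which finish Okazaki fragments, rose with PI103, oxozeaenol and both. The clamp loader subunits did not rise with PI103, and RFC2, RFC3, RFC4 and RFC5 each fell with PD0325901. FEN1, the flap endonuclease (chr11:61792637-61797244, plus strand), showed the largest rise of the 42 members with oxozeaenol and with PI103 and oxozeaenol. FEN1 held 64.6, 42.5, 56.7 and 41.2 CPM in control, 91.2, 105, 91.7 and 91.3 CPM with PI103 and 64.5, 62.5, 73.1 and 66.6 CPM with PD0325901. It held 118, 100.03, 111 and 105 CPM with oxozeaenol, 136, 125, 125 and 118 CPM with PI103 and oxozeaenol, and 80.3, 48.1, 76.3 and 70.6 CPM with PI103 and PD0325901. Libraries with PI103, oxozeaenol or both lay above all controls, and the remaining ones overlapped with them. FEN1 rose by 1.08 (± 0.131, adjusted p 1.85e-07) with oxozeaenol, rose by 0.89 (± 0.131, adjusted p 3.22e-06) with PI103 and rose by 1.30 (± 0.131, adjusted p 7.25e-09) with both. It was also the one member that rose with PD0325901, where it rose by 0.38 (± 0.130, adjusted p 0.0144), and it rose by 0.43 (± 0.130, adjusted p 0.00576) under PI103 and PD0325901. Without control replicate 2 or 4 the rise of FEN1 with PD0325901 was not called (adjusted p 0.0689 and 0.072).

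LIG1, the DNA ligase that seals the fragments (chr19:48115445-48170603, minus strand), rose with the same 3 treatments. LIG1 held 90.2, 73.7, 81.7 and 79.8 CPM in control, 118, 122, 111 and 119 CPM with PI103 and 89.5, 69.0, 88.2 and 88.0 CPM with PD0325901. It held 138, 114, 122 and 122 CPM with oxozeaenol, 159, 146, 153 and 152 CPM with PI103 and oxozeaenol, and 109.9, 62.1, 96.8 and 92.0 CPM with PI103 and PD0325901. The groups with PI103, oxozeaenol or both did not overlap with control. LIG1 rose by 0.91 (± 0.116, adjusted p 3.25e-07) with PI103 and oxozeaenol, rose by 0.61 with oxozeaenol and rose by 0.53 with PI103. With PI103 and PD0325901 LIG1 stood at 0.15 (adjusted p 0.263) and was called higher without replicate 2 of that group (adjusted p 0.00835), without batch 2 (0.0199) or with library totals (0.0388). PCNA, the sliding clamp, held 647 ± 23.7 CPM (SD, n = 4) in control, 1139 ± 182 CPM (SD, n = 4) with oxozeaenol and 1151 ± 101.1 CPM (SD, n = 4) with PI103 and oxozeaenol. PCNA rose by 0.82 with oxozeaenol and rose by 0.83 with PI103 and oxozeaenol, against 0.36 (adjusted p 0.0847) with PI103. It has 3 annotated pseudogenes, so reads shared with them may not be counted.

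RFC4, a subunit of the loader that opens the clamp, held 87.3 ± 10.2 CPM (SD, n = 4) in control, 69.1 ± 4.81 CPM (SD, n = 4) with PI103, 57.1 ± 11.8 CPM (SD, n = 4) with PD0325901 and 49.6 ± 9.16 CPM (SD, n = 4) with PI103 and PD0325901. RFC4 fell by 0.34 (± 0.127, adjusted p 0.0288) with PI103, fell by 0.61 (± 0.128, adjusted p 0.000194) with PD0325901 and fell by 0.82 (± 0.128, adjusted p 4.13e-06) with both. The call of RFC4 with PI103 was lost without control replicate 2 or 4 or PI103 replicate 2, 3 or 4 (adjusted p 0.0579 to 0.0917) and with library totals (0.0631). RFC2, RFC3 and RFC5, the other subunits, fell by 0.77, 0.52 and 0.53 with PI103 and PD0325901. RPA2 rose by 0.28 with PI103, rose by 0.47 with oxozeaenol and rose by 0.61 with both, and its annotated pseudogenes number 3. RPA3, the smallest RPA subunit, was not called in any of the 5 treatments. RPA3 held 53.1, 82.9, 53.6 and 75.8 CPM in control, 70.1, 63.2, 69.8 and 95.0 CPM with PI103 and 49.3, 43.2, 62.2 and 75.6 CPM with PD0325901. It held 59.2, 71.0, 96.8 and 128 CPM with oxozeaenol, 69.4, 66.0, 73.4 and 101.04 CPM with PI103 and oxozeaenol, and 48.3, 45.9, 71.9 and 84.1 CPM with PI103 and PD0325901. Every treated group overlapped with control. With oxozeaenol RPA3 stood at 0.42 (adjusted p 0.137), and was called without oxozeaenol replicate 1 (0.0458) or with the replicate block (0.0353).

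The 5 E2F genes separated into 3 that rose and 2 that fell or were not called. E2F1, E2F2 and E2F8 rose with PI103, with oxozeaenol and with both, while E2F3 and E2F7 fell with PD0325901, alone or with PI103. E2F1, an activator and the founding member (chr20:33675683-33686404, minus strand), was highest where PI103 met oxozeaenol. E2F1 held 30.1, 28.3, 28.1 and 28.6 CPM in control, 47.8, 42.5, 40.9 and 49.0 CPM with PI103 and 31.3, 22.3, 27.6 and 28.6 CPM with PD0325901. It held 42.6, 43.4, 39.1 and 63.1 CPM with oxozeaenol, 62.7, 48.7, 59.1 and 72.0 CPM with PI103 and oxozeaenol, and 36.7, 25.3, 33.5 and 39.2 CPM with PI103 and PD0325901. Every library with PI103, oxozeaenol or both stood above every control, and the rest overlapped. E2F1 rose by 1.08 (± 0.141, adjusted p 5.39e-07) with PI103 and oxozeaenol, rose by 0.71 with oxozeaenol and rose by 0.65 with PI103. With PD0325901 it stood at -0.07 (adjusted p 0.699) and with PI103 and PD0325901 at 0.23 (adjusted p 0.159), where E2F1 was called higher without replicate 2 of that group (adjusted p 0.0314), without batch 2 (0.0355) or with library totals (0.0318).

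E2F2, also an activator (chr1:23506430-23531220, minus strand), had the lowest control level of the 5 per kilobase of exon, at 1.66 ± 0.177 (SD, n = 4) CPM per kb. E2F2 held 10.2, 8.47, 9.38 and 8.07 CPM in control, 15.3, 17.0, 15.8 and 15.2 CPM with PI103 and 10.4, 8.34, 9.88 and 8.95 CPM with PD0325901. It held 13.3, 13.1, 13.4 and 16.7 CPM with oxozeaenol, 20.8, 16.1, 22.1 and 21.6 CPM with PI103 and oxozeaenol, and 14.5, 8.70, 13.4 and 13.4 CPM with PI103 and PD0325901. Libraries with PI103, oxozeaenol or both lay above control without overlap. E2F2 rose by 0.81 (± 0.131, adjusted p 1.23e-05) with PI103, rose by 0.64 (± 0.131, adjusted p 0.000209) with oxozeaenol, rose by 1.16 (± 0.131, adjusted p 4.59e-08) with both, and rose by 0.47 (± 0.131, adjusted p 0.00271) under PI103 and PD0325901. E2F3, the other activator of the 5 (chr6:20401906-20493715, plus strand), held 85.5, 64.3, 78.2 and 68.6 CPM in control, 57.1, 51.2, 48.3 and 48.7 CPM with PD0325901 and 63.3, 41.0, 56.4 and 57.2 CPM with PI103 and PD0325901. It held 78.8, 71.2, 71.8 and 63.1 CPM with PI103, 75.9, 60.99, 63.9 and 63.4 CPM with oxozeaenol and 79.7, 78.0, 77.4 and 77.9 CPM with both. Only the groups with PD0325901 lay wholly below control. E2F3 fell by 0.53 (± 0.109, adjusted p 0.000155) with PD0325901 and fell by 0.45 (± 0.108, adjusted p 0.000837) under PI103 and PD0325901, and was not called in the other 3. Its annotated pseudogenes number 2.

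E2F7 and E2F8, the atypical repressors, which are often described as a pair, moved apart. E2F7 held 37.6, 30.04, 34.7 and 28.4 CPM in control, 39.5, 34.1, 37.5 and 32.9 CPM with PI103 and 15.2, 9.84, 11.0 and 13.3 CPM with PD0325901. It held 30.4, 21.8, 24.4 and 25.6 CPM with oxozeaenol, 36.5, 33.8, 35.4 and 35.8 CPM with PI103 and oxozeaenol, and 22.2, 9.61, 19.9 and 20.6 CPM with PI103 and PD0325901. The libraries with PD0325901, alone or with PI103, all lay below every control library, and batch 2 held the lowest value in both groups. E2F7 (chr12:77021247-77065580, minus strand) fell by 1.41 (± 0.177, adjusted p 3.07e-07) with PD0325901, the largest fall of the 42 members in these 5 comparisons, and fell by 0.85 (± 0.173, adjusted p 0.000148) under PI103 and PD0325901. With oxozeaenol it stood at -0.36 (adjusted p 0.0873), and was called lower without batch 2 (adjusted p 0.0317), without oxozeaenol replicate 1 (0.0363) or with the replicate block (0.0223).

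E2F8 held 41.7, 33.7, 42.7 and 32.4 CPM in control, 77.2, 68.5, 69.1 and 67.7 CPM with PI103 and 43.9, 29.1, 35.5 and 41.0 CPM with PD0325901. It held 76.9, 61.3, 65.3 and 71.4 CPM with oxozeaenol, 93.9, 85.3, 89.3 and 93.4 CPM with PI103 and oxozeaenol, and 64.1, 26.4, 56.4 and 58.3 CPM with PI103 and PD0325901. Libraries of E2F8 with PI103, oxozeaenol or both stood above all controls, and those with PD0325901 overlapped them. E2F8 (chr11:19224063-19241620, minus strand) rose by 0.91 (± 0.175, adjusted p 0.000129) with PI103, rose by 0.87 (± 0.175, adjusted p 0.00022) with oxozeaenol and rose by 1.27 (± 0.176, adjusted p 1.7e-06) with both, against -0.01 (adjusted p 0.969) with PD0325901. It rose by 0.45 (± 0.174, adjusted p 0.0273) under PI103 and PD0325901, a call lost without control replicate 2 or 4 or replicate 1, 3 or 4 of that group (adjusted p 0.07 to 0.126).

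The 2 chromatin genes rose with PI103, oxozeaenol and both, and neither was called with PD0325901, alone or with PI103. UHRF1, which reads hemimethylated DNA behind the fork (chr19:4903080-4962154, plus strand), showed the larger rises. UHRF1 held 94.9, 70.8, 85.4 and 70.7 CPM in control, 126, 136, 132 and 136 CPM with PI103 and 83.8, 76.0, 75.7 and 83.4 CPM with PD0325901. It held 121, 100.6, 112 and 126 CPM with oxozeaenol, 149, 143, 150.3 and 158 CPM with PI103 and oxozeaenol, and 109, 64.6, 98.3 and 95.1 CPM with PI103 and PD0325901. No library with PI103, oxozeaenol or both overlapped with control. UHRF1 rose by 0.90 (± 0.116, adjusted p 3.27e-07) under PI103 and oxozeaenol and rose by 0.72 with PI103. With PI103 and PD0325901 it stood at 0.19 (adjusted p 0.151), and was called higher without replicate 2 of that group (adjusted p 0.00509), without control replicate 1 (0.0485), without batch 2 (0.0252) or with library totals (0.0218).

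CHAF1A held 46.4, 35.9, 41.0 and 39.2 CPM in control, 56.8, 61.4, 54.9 and 60.6 CPM with PI103 and 39.5, 34.4, 36.5 and 36.9 CPM with PD0325901. It held 60.4, 52.5, 53.2 and 59.9 CPM with oxozeaenol, 71.2, 63.1, 67.2 and 71.6 CPM with PI103 and oxozeaenol, and 50.02, 30.6, 44.1 and 44.0 CPM with PI103 and PD0325901. CHAF1A (chr19:4402662-4445018, plus strand), the large subunit of the assembly factor that deposits new nucleosomes, thus stood above control without overlap under PI103, oxozeaenol and both. It rose by 0.75 (± 0.106, adjusted p 1.37e-06) with PI103 and oxozeaenol, rose by 0.53 with PI103 and rose by 0.48 with oxozeaenol.

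Members with and without an E2F word in their window were set side by side as a description. With PI103 the median log2 change was 0.53 over the 21 members with a word and -0.12 over the 14 without one, and with PI103 and oxozeaenol it was 0.63 and 0.22. With oxozeaenol the medians were 0.51 and 0.23, with PD0325901 -0.21 and -0.47, and with PI103 and PD0325901 -0.03 and -0.55. The median with a word was thus the higher under each treatment, and these comparisons share their control. The ranges overlapped throughout, since with PI103 the 21 members spanned -0.42 (CDC6) to 0.81 and the 14 spanned -0.66 (ORC2) to 0.89 (FEN1).

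Set against each other, PD0325901 stood apart from the other single agents. Against PI103, 33 members were lower with PD0325901 and none higher, where 21.7% of all tested genes were called lower and 44.5% in either direction. All 42 had a negative log2 difference, with a median of -0.48 against -0.01 over all genes. The widest were E2F7 (-1.55), MCM7 (-1.01) and MCM2 (-0.94), and all 6 subunits of the MCM2 to MCM7 ring were lower. Oxozeaenol exceeded PD0325901 for 40 members, where 13.4% of all genes were called higher, and the median difference was 0.64 against 0.01. The widest of these were POLD3 (1.08), E2F7 (1.05) and GMNN (1.01), and those not called were ORC2 and PRIM2. Without batch 2 these counts were 29 lower against PI103 and 37 higher with oxozeaenol.

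Oxozeaenol and PI103 differed in fewer members and in both directions. Oxozeaenol was higher for 8 of the 42 members and lower for 6 (14.3%), beside 22.5% and 20.6% of all genes (43.1% in all). The members were thus called no more often than genes in general, and those named here are a description. The median difference was 0.10. MCM2, MCM3, MCM5 and MCM7 were lower with oxozeaenol, by 0.34, 0.33, 0.44 and 0.32, with E2F7 (-0.49) and POLA1 (-0.39). ORC6 (0.81), GMNN (0.61), PCNA (0.46) and POLE2, a subunit of the leading strand polymerase (0.44), were among those higher. The 14 calls became 8, 6 or 7 without PI103 replicate 1, 2 or 3, and 9, 6 or 7 without oxozeaenol replicate 2, 3 or 4.

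**Figure D4:**
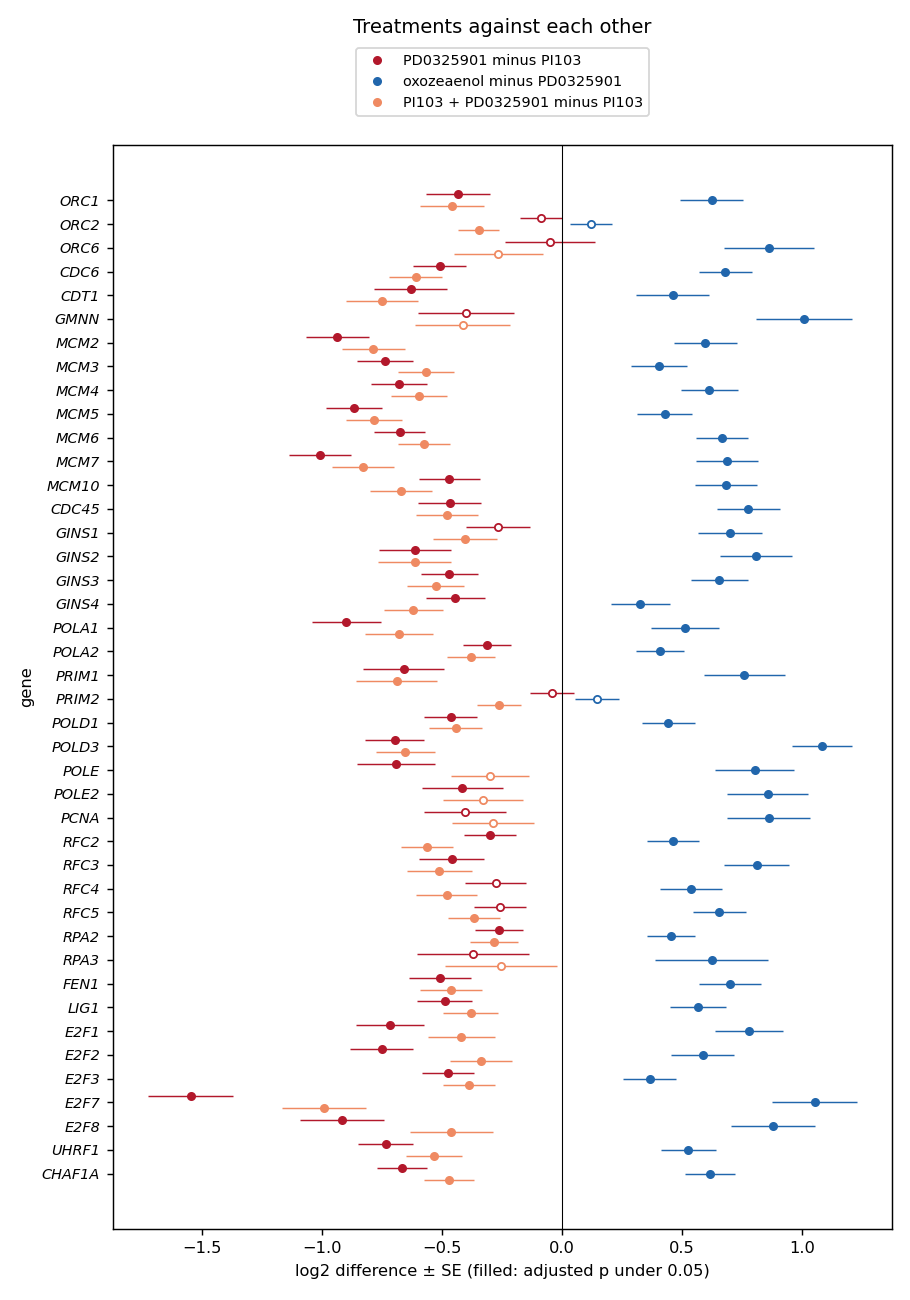
Log2 difference ± SE of each of the 42 members for PD0325901 minus PI103, oxozeaenol minus PD0325901, and PI103 with PD0325901 minus PI103, with filled points at an adjusted p under 0.05. PD0325901 minus PI103 lies left of 0 with 33 filled points, as does the combination minus PI103 with 36, and oxozeaenol minus PD0325901 lies right of 0 with 40.

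The combination of PI103 and PD0325901 lay close to PD0325901 and far from PI103. Against PI103, 36 members were lower and none higher, beside 19.9% of all genes called lower and 38.7% in either direction, with a median of -0.47. Against PD0325901, E2F7 (0.56) and E2F2 (0.41) were higher and ORC2 (-0.26) lower, beside 8.06% higher and 10% lower over all genes. These were all the calls and are named for that reason. The median difference was 0.03, and its sign turned when 1 of several libraries was left out. The 3 calls became 7 without batch 2 or with the replicate block, 11 without replicate 2 of the combination, 1 without its replicate 3 or PD0325901 replicate 4, and 0 without its replicate 1 or 4 or PD0325901 replicate 3. Both agents were at 50% here, so the comparison is one of doses as well.

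Each combination was also compared with the mean of its single agents on the log2 scale, the level that would follow if effects were linear in dose. With PI103 and PD0325901, 13 members were called below that mean and none above, beside 11.1% of all genes below and 10.8% above, with a median of -0.24. MCM10 (-0.44, ± 0.112, adjusted p 0.00715), RFC2 (-0.41, ± 0.0947, adjusted p 0.00302) and ORC2 (-0.30, ± 0.0762, adjusted p 0.00615) were among them. MCM10 was not called without replicate 2 of the combination (adjusted p 0.0519). The 13 calls became 2 without that library, 22 without PD0325901 replicate 2, and 7 without PI103 replicate 1, PD0325901 replicate 3 or 4, or batch 2. The replicate block gave 23.

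PI103 with oxozeaenol was also set against each of its agents. It was called higher for 10 members than PI103, beside 9.39% of all genes, and for 5 members than oxozeaenol, beside 7.59%. No member was called lower in either comparison, where 8.92% and 7.28% of all genes were. The log2 difference was negative for 5 members against PI103, down to -0.17, and for 7 against oxozeaenol, down to -0.21. ORC6 (0.66), POLD3 (0.53) and CDC45 (0.53) showed the widest differences from PI103, and E2F2 (0.51), MCM5 (0.41) and MCM3 (0.40) from oxozeaenol. The medians were 0.28 and 0.18. The replicate block raised these counts to 20 and 16, and leaving out batch 2 gave 19 and 11. The 10 calls became 6, 3 or 6 without PI103 replicate 1, 3 or 4 and 5 without replicate 1 or 3 of the combination. The 5 calls became 12, 1 or 2 without oxozeaenol replicate 1, 2 or 3, 1 without replicate 1 or 3 of the combination and 3 without its replicate 4.

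Against the mean of PI103 and oxozeaenol, E2F2 was the one member called above it, beside 2.88% of all genes. None was called below (1.1% of all genes, 3.98% in all), and 2 members had a negative difference. The members were thus called no more often than genes in general, and E2F2 is named as the only call. E2F2 stood 0.43 above (± 0.110, adjusted p 0.0227), a call lost without replicate 1, 3 or 4 of the combination (adjusted p 0.0816 to 0.116). The median member stood at 0.22 against -0.01 over all genes. With the replicate block 12 members were called, and with batch 2 left out 8.

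Other genes of replication and the cell cycle were followed in 7 lists. Against control, the shares of all tested genes called higher and lower were 26.2% and 25.2% with PI103 and 28.7% and 29.9% with PD0325901. They were 25.7% and 26.1% with oxozeaenol, 27.7% and 27.9% with PI103 and oxozeaenol, and 32.2% and 32.6% with PI103 and PD0325901. List counts near these shares are a description. Of 27 tested genes in a list of 28 further replication factors, PI103 gave 6 higher and 6 lower (median 0.09). PD0325901 gave 1 higher and 17 lower (median -0.34) and oxozeaenol 8 higher and 5 lower (median 0.05). With PI103 and with oxozeaenol the genes of this list were called no more often than genes in general. POLE3, a histone-fold subunit of the leading strand polymerase, fell by 0.72 with PI103, 0.80 with PD0325901 and 1.09 with both. ORC5, a subunit of the origin recognition complex like ORC2, fell by 0.84 with PI103, 0.58 with PD0325901 and 0.63 with PI103 and oxozeaenol, and stood at -0.25 (adjusted p 0.0791) with oxozeaenol. Of 9 genes of nucleotide supply, 7 rose with PI103 and oxozeaenol, with a median of 0.53. With PD0325901 3 fell (median -0.18), which is near the share of all genes lower there. DUT, which removes dUTP, rose by 1.04 with PI103 and oxozeaenol.

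Pocket proteins, the remaining E2F genes and the DREAM complex form a list of 13, of which PD0325901 gave 2 higher and 8 lower (median -0.37) and PI103 and PD0325901 2 higher and 9 lower (median -0.48). RBL2, the pocket protein p130 that represses E2F targets in resting cells, rose by 0.94 with PI103, rose by 0.53 with PD0325901, rose by 0.25 with oxozeaenol, rose by 0.61 with PI103 and oxozeaenol and rose by 0.91 with PI103 and PD0325901. LIN37, a subunit of DREAM, fell by 0.55, 0.33, 0.74, 0.90 and 0.52 in the same order. Of 9 further chromatin genes PI103 gave 4 higher and 1 lower (median 0.13). The histone chaperones ASF1B and ASF1A moved apart, since with PI103 ASF1B rose by 1.24 (± 0.127, adjusted p 1.08e-08) and ASF1A fell by 0.89 (± 0.136, adjusted p 6.67e-06). Of 14 genes of S-phase repair and checkpoints, PI103 and oxozeaenol gave 10 higher and 0 lower (median 0.43) and PD0325901 1 higher and 7 lower (median -0.34). MSH6, a mismatch repair factor, rose by 0.89 with PI103 and oxozeaenol.

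Regulators of the step from G1 to S, 15 tested of 16, moved in both directions. CDKN1C, the kinase inhibitor p57, rose most, from 0.962 ± 0.241 CPM (SD, n = 4) in control to 5.28 ± 0.490 CPM (SD, n = 4) with PI103, 20.2 ± 10.4 CPM (SD, n = 4) with PD0325901 and 4.71 ± 1.08 CPM (SD, n = 4) with oxozeaenol. It rose by 4.37 (± 0.304, adjusted p 2.96e-11) with PD0325901. CDKN2C, the kinase inhibitor p18, rose by 1.38 with PI103, rose by 0.72 with PD0325901 and rose by 0.82 with oxozeaenol. The 13 genes of G2 and mitosis had under oxozeaenol counts of 1 higher and 1 lower (median -0.05), against 5 higher and 0 lower (median 0.50) with PI103 and 0 higher and 7 lower (median -0.44) with PD0325901. Against PI103, oxozeaenol gave 0 higher and 4 lower (median -0.48), beside 22.5% and 20.6% of all genes. CCNB2, a mitotic cyclin, fell by 0.55 with oxozeaenol and fell by 0.85 with PD0325901, whereas CDK1, its kinase partner, rose by 0.85 with oxozeaenol and stood at -0.07 (adjusted p 0.797) with PD0325901.

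**Figure D5:**
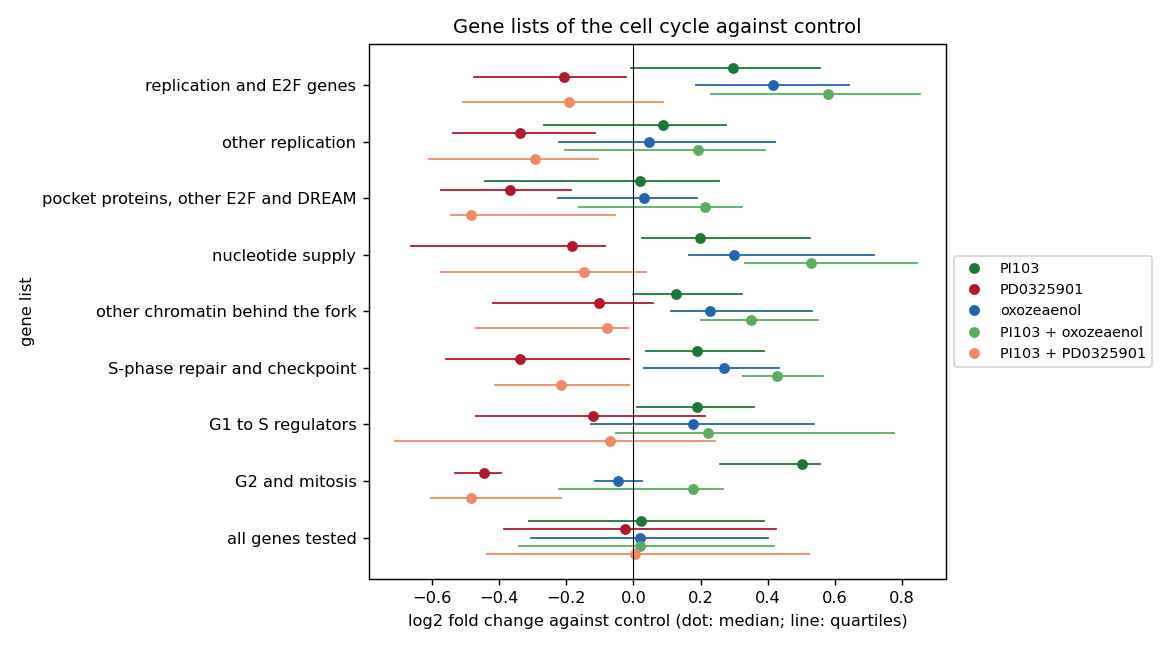
Median (dot) and quartiles (line) of the log2 fold change against control for the 42 replication and E2F genes, 7 other lists and all tested genes, in each of the 5 treatments. The 42 genes reach 0.58 with PI103 and oxozeaenol and -0.21 with PD0325901, the G2 and mitosis list reaches 0.50 with PI103 and -0.05 with oxozeaenol, and the medians of all genes lie between -0.02 and 0.02.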

How the data were processed

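RNA was sequenced in 24 libraries of AGS cells, 4 in each of 6 groups. Per the labels' protocols, libraries were made from 0.8 µg of total RNA with a stranded mRNA kit. The authors deposited whole-number read counts per gene symbol, not normalized. The genome build was GRCh38 per the submitters' processing notes, and the aligner, counter and annotation are not given in the sources used here. The 5 tallies that close the table entered neither library sizes nor tests; as shares of all tallied reads, no feature made up 4.24% to 8.57%, no unique alignment 4.64% to 6.06% and ambiguous reads 1.57% to 2.01%. The table held 0 other columns of per-sample values.

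Of 23368 genes, filterByExpr kept 13947. TMM-scaled counts were fitted with edgeR 4.0.16 in R 4.3.3 (quasi-likelihood test, 1 coefficient per group over all 24 libraries, two-sided), with Benjamini-Hochberg adjustment over all tested genes in each of 14 comparisons and calls at an adjusted p under 0.05. The common biological coefficient of variation was 0.131. The scripts were tested on simulated data. CPM were taken from edgeR over library sizes times their TMM factors, with a prior count of 2 where logged. Fold changes are on the log2 scale, and SE is the fold change over the square root of F. Per-library values are given in the order of batches 1 to 4, which are replicates 1 to 4.

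The labels give a batch number that pairs the libraries, and the batch was also fitted as a replicate block. Deviations from group means had a mean correlation of 0.12 over 60 pairs of libraries with the same number (28 over 0.1) and -0.04 over 180 pairs with different numbers. Over the members alone the means were 0.32 and -0.10. Further alternatives were RLE factors, library totals, other filters, a minimum change of 0.5, a fit of only the groups compared, DESeq2 1.42.0, each library left out in turn, and batch 2 left out; library totals and batch 2 were added after the data were seen.

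The members and gene lists were chosen with earlier results of these data known. The rule for named genes took, in each role, the 2 members with the largest mean absolute change over the 5 treatments and the 1 with the smallest (all members of a role of 5 or fewer). It added members called against the main direction, those called in a combination against the mean of its single agents (the 3 of smallest adjusted p where more than 5 were), and 2 genes from each of 7 other lists, of which 2 are not reported here. MCM7 and the other members named were chosen after their values were seen. Coordinates and overlaps of genes come from GENCODE release 29 (GRCh38), and promoter letters from RefSeq.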

Additional observations from a re-analysis of the deposited data

Results flagged for a closer look

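In a group of 4 libraries, a library was set apart when its gap to the nearest other exceeded Dixon's critical share of the group's range, which chance alone gives in about 1 in 20 groups. Of 144 groups, namely the members' mean and the 23 genes named by rule in each treatment and control, 13 held such a library. Some libraries were set apart more than once. The mean over the 42 members met it in batch 2 of both groups with PD0325901. It stood at -0.58 with PD0325901, against -0.21 to -0.17 in the other 3 libraries, and at -0.73 with PI103 and PD0325901, against -0.10 to -0.09. The same batch was lowest for LIG1 with PD0325901 (69.0 CPM, against 88.0 to 89.5), and, with PI103 and PD0325901, for CDC6 (85.5 CPM, against 128 to 133) and MCM10 (26.5 CPM, against 43.0 to 44.5).

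In the other groups single genes met it in different libraries. With PI103, ORC2 was low in batch 4 (67.7 CPM, against 74.8 to 75.8), as was MCM10 (53.6 CPM, against 64.1 to 66.2), while FEN1 was high in batch 2 (105 CPM, against 91.2 to 91.7) and E2F8 in batch 1 (77.2 CPM, against 67.7 to 69.1). With oxozeaenol, GINS1 was high in batch 3 (307 CPM, against 252 to 260.1), E2F2 in batch 4 (16.7 CPM, against 13.1 to 13.4), and PRIM1 was low in batch 1 (56.7 CPM, against 69.5 to 72.0). With PI103 and oxozeaenol, PRIM2 was low in batch 4 (48.4 CPM, against 53.4 to 54.0).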

How the results depend on the processing

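Values here count the members called of 42, without the share of all genes called in the same fit. With a minimum change of 0.5, PI103 gave 5 against control, PD0325901 4, oxozeaenol 3, and the combinations of PI103 with oxozeaenol 16 and with PD0325901 6. They were 6 for PD0325901 and 0 for oxozeaenol against PI103, 2 for oxozeaenol against PD0325901, 3 for PI103 and PD0325901 against PI103, and 0 in the other comparisons of combinations. For PI103 and oxozeaenol against PI103, oxozeaenol and their mean (10, 5 and 1), DESeq2 called 16, 9 and 6, a fit of only the groups compared 29, 14 and 15, and batch 2 left out gave 19, 11 and 8. Against that mean RLE factors gave 2, library totals 3 and a filter at 1 CPM 2. For PI103 and PD0325901 against PD0325901 (3), no filter gave 1, only the groups compared 0 and batch 2 left out 7; against the mean (13), library totals gave 8, only the groups compared 6 and batch 2 left out 7.

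The batch as a replicate block gave 20, 16 and 12 for PI103 and oxozeaenol against PI103, oxozeaenol and their mean, and 7 and 23 for PI103 and PD0325901 against PD0325901 and the mean. It moved the other counts by less than 1.5 times, and of the named genes it changed the calls printed beside PRIM1, MCM10, CDC6, RPA3 and E2F7 and no other. Against control, leaving out 1 library gave PI103 21 to 27 calls, PD0325901 16 to 19, oxozeaenol 23 to 26, PI103 and oxozeaenol 27 to 30, and PI103 and PD0325901 19 to 24. It gave 28 to 36 for PD0325901 and 6 to 14 for oxozeaenol against PI103, and 34 to 40 for oxozeaenol against PD0325901. For PI103 and oxozeaenol it gave 3 to 9, 1 to 12 and 0 to 2 against PI103, oxozeaenol and the mean, and for PI103 and PD0325901 28 to 38, 0 to 11 and 2 to 22 against PI103, PD0325901 and the mean. The median member of PI103 and PD0325901 against PD0325901 (0.03) turned to -0.0054, -0.0090 and -0.050 without replicate 1, 3 or 4 of the combination and to -0.084 without PD0325901 replicate 2, and stood at 0.17 without replicate 2 of the combination. The cause of these shifts was not tested, beyond the smaller number of libraries in the fits that leave some out. Each library held 38.1 M counts or more, and how far depth limits these calls was not tested.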
